A study of Mus musculus with 16 samples.

Results

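ATP-binding cassette (ABC) transporters of the mouse kidney were followed in Kl/Kl mice and their controls. The family was taken by name, as the protein-coding genes whose symbol is Abc, a letter from a to g, digits and an optional final letter. This gave 47 genes of the 30277 in the deposited tables, of which 17903 are protein-coding. The 47 comprised 14 ABCA, 9 ABCB, 10 ABCC, 4 ABCD, 1 ABCE, 3 ABCF and 6 ABCG genes. The rule uses names alone, but it was set with earlier results of these data known.

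ABC transporters use the energy of ATP to move their substrates across a membrane, and most ABC transporters of mammals are exporters. In the proximal tubule, uptake carriers on the blood side bring organic anions, organic cations and drugs into the cell. ABC pumps of the brush border then secrete them into the urine, while other members export cholesterol and phospholipid, carry fatty acids into peroxisomes, or serve mitochondria and lysosomes.

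The libraries came from polyadenylated RNA of perfused kidneys. All groups share the 129S1/SvlmJ background, on which the Kl mutation is congenic. The groups were 5 male Kl/Kl kidneys (44 to 47 days of age) against 3 male +/Kl controls (45 to 46 days), and 4 female Kl/Kl kidneys (45 to 54 days) against 4 female +/+ controls (45 to 49 days). Per the labels the Kl/Kl mice had renal disease. Every male control was heterozygous and every female control was wild type, and each sex has a table of its own, so sex, control genotype and table cannot be told apart. Nothing in the labels says that every library is from its own animal, and p-values here therefore reflect only the scatter among these libraries, which may be technical.

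Values are transcript levels in TPM that had been scaled by the genomic span of each gene, introns included, so a TPM level can be compared between libraries but not between genes. By estimate the libraries held 21.5 to 31.7 M reads. Kl, which encodes klotho, the co-receptor for the hormone FGF23, had 0.0235 to 0.265 TPM in male Kl/Kl kidneys, against 4.14 to 15.1 TPM in male controls. It had 0.0268 to 0.518 TPM in female Kl/Kl kidneys, against 9.18 to 21.2 TPM in female controls. Kl/Kl libraries lay below all controls of their sex, while the ranges of +/Kl and +/+ controls overlapped, so Kl did not check those labels. The library of female Kl/Kl replicate 3 stood apart: its 8 proximal tubule markers summed to 15.0 TPM, where the other female Kl/Kl libraries had 498 to 624 TPM, and its 6 heart markers summed to 1904 TPM. Its kidney label is not borne out by these markers and its genotype label cannot be read from Kl, so it was left out of the female fits and the values with it are given beside them. Male control replicate 3 also differed from its group, with 54.3% of its TPM on mitochondrial genes where the rest of the male libraries had 35.4% to 44.8%, and results are given with and without it.

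Each gene was tested with limma on log2(TPM + 0.1) if its mean reached 0.1 TPM, and was called at a Benjamini-Hochberg adjusted p under 0.05 over all genes tested. A log2 change below is Kl/Kl minus control on that scale, and it understates the change of genes with low values. In males 908 of 17382 genes were called, or 5.22%, with 556 higher (3.2%) and 352 lower (2.03%) in Kl/Kl kidneys. Of the 47 ABC genes 33 passed the filter and were tested in males. In Kl/Kl males 2 of them rose, Abcc4 and Abcc3, and 0 fell, although up to 5 were called lower under other settings. That share is near the background, so the count is no result about the family as a whole. In females 0 of 17509 genes (0%) and 0 of 33 ABC genes were called. At an unadjusted p under 0.05, 1895 genes (10.8%) were higher and 688 (3.93%) lower in female Kl/Kl kidneys, among them 3 and 2 ABC genes. The Kl/Kl change differed between the sexes (males minus females) for 153 of 17534 genes, or 0.873%, and for 1 ABC gene, Abcc3.

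Abcc4 rose and passed the test in males, and the neighbouring drug pumps Abcb1b and Abcb1a, the 2 P-glycoprotein genes, are close copies of each other. For this reason stretches just upstream of transcription starts that RefSeq lists for these genes are shown. Each is the 250 bases before the start, 5′ to 3′ on the strand of the gene, from RefSeq on build GRCm38.p6. Capitals mark GC boxes (GGGCGG on either strand).
Abcc4, chr14:118706220-118706469, minus strand: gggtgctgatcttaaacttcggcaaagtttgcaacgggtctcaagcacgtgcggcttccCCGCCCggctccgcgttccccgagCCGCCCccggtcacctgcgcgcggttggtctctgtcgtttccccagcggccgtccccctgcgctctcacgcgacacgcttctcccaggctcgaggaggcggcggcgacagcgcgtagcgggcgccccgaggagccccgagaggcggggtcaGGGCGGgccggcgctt
Abcb1b, chr5:8797897-8798146, plus strand: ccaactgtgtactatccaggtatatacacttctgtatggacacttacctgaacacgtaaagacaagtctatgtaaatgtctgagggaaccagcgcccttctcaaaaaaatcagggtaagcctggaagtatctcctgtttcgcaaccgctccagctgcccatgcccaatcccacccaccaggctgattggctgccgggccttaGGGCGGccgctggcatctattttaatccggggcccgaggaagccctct
Abcb1a, chr5:8566841-8567090, plus strand: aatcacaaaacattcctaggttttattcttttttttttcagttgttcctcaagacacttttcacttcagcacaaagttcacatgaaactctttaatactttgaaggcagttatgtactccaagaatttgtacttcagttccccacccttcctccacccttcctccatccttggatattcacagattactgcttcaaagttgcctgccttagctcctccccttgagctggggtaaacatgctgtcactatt

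The Abcc4 stretch was the richest of these in guanine and cytosine, at 72%, with 35 CpG dinucleotides and 3 GC boxes. Abcb1b had 52.8% guanine and cytosine, 9 CpG dinucleotides, 1 GC box and 2 CCAAT boxes (CCAAT on either strand), while the Abcb1a stretch had 40.4%, 0 CpG dinucleotides and neither motif. That stretch precedes a RefSeq start far upstream of the measured Abcb1a gene. On mm39 the measured Abcb1a and Abcb1b start at 8710077 and 8848147, much closer together than their RefSeq stretches. The contrast with Abcb1b therefore need not hold for the promoter of the measured Abcb1a. The Abcc4 stretch also held 1 match to the core of the antioxidant response element (TGACNNNGC, either strand) and 2 to that of the xenobiotic response element (GCGTG, either strand). RefSeq also lists a second Abcc4 start, whose 250 bases held 0 GC boxes and 1 antioxidant core. Of 32851 mouse stretches of this length, 32.74% held a GC box, 33.85% a CCAAT box, 10.16% the antioxidant core and 28.16% the xenobiotic core. Of 42 stretches for the 35 ABC genes in the table, 20 held a GC box, 12 a CCAAT box, 4 the antioxidant core and 12 the xenobiotic core. These are letter matches and not measured binding sites.

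Among the 5 pumps of the apical membrane, 1 of 5 rose in Kl/Kl males and 0 fell, where 3.2% of all genes were higher and 2.03% lower. Abcc4 (ENSMUSG00000032849, mm39 chromosome 14, 118720104 to 118943632, minus strand) encodes MRP4, which exports cyclic nucleotides, urate and organic anions into the urine. It had 0.524, 0.728, 0.525, 0.723 and 0.585 TPM in male Kl/Kl replicates 1 to 5, against 0.189, 0.173 and 0.0569 TPM in male control replicates 1 to 3. Every male Kl/Kl library lay above every male control, as for 19% of all genes tested in males, and control replicate 3 was the lowest. The mean was 0.617 ± 0.102 TPM in Kl/Kl males (SD, n = 5) and 0.14 ± 0.0722 TPM in controls (SD, n = 3), a ratio of 4.41, and the log2 change was 1.62 (95% interval 1.08 to 2.16, limma adjusted p = 0.0058). Without control replicate 3 the ratio was 3.40 and the log2 change 1.34, with a limma adjusted p of 0.00545. The median gene tested was 0.27 higher in Kl/Kl males on the log2 scale, and Abcc4 stood 1.35 above that median.

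In females Abcc4 had 0.481, 0.806 and 0.584 TPM in Kl/Kl replicates 1, 2 and 4, and 0.0261 TPM in replicate 3, against 0.397, 0.423, 0.381 and 0.504 TPM in controls. The female groups overlapped, since Kl/Kl replicate 1 lay below control replicate 4. The log2 change was 0.44 (95% interval 0.06 to 0.82, limma adjusted p = 0.289), and -0.18 with Kl/Kl replicate 3. The male change exceeded the female change by 1.18 (95% interval 0.54 to 1.82), which did not pass the test (limma adjusted p = 0.103), so a difference between the sexes was not shown for Abcc4. It was called under 4 of 27 alternative settings.

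**Figure D1:**
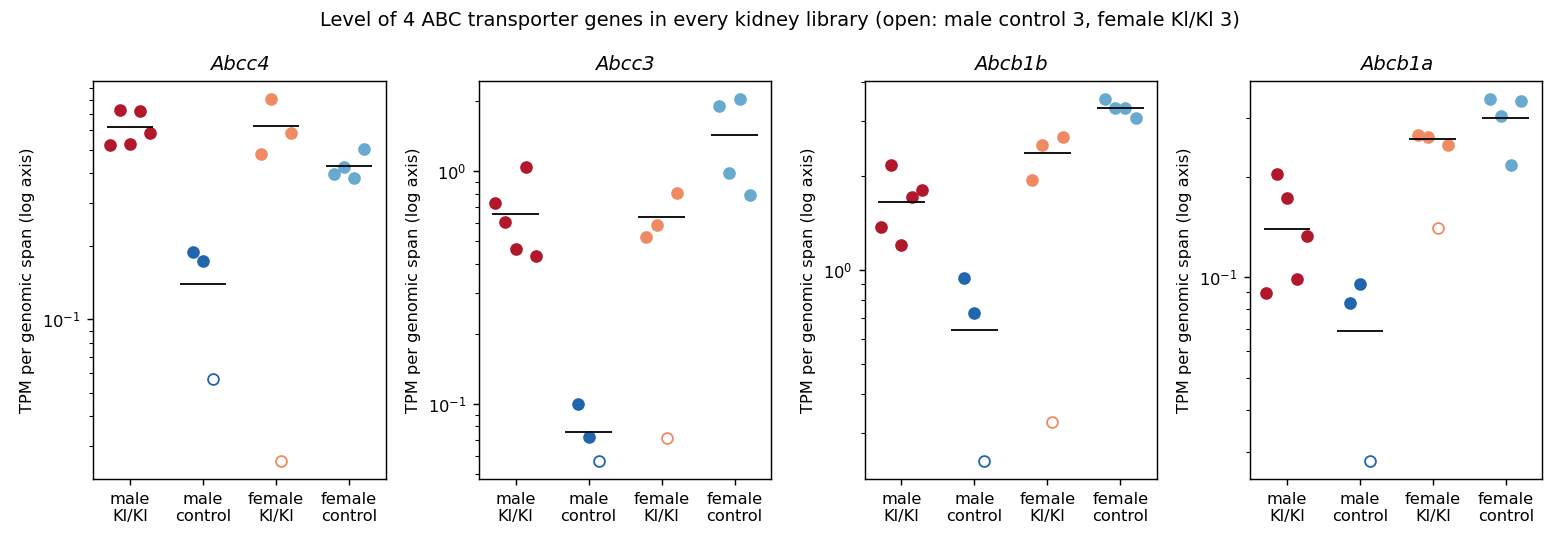
TPM per genomic span (log axis) of Abcc4, Abcc3, Abcb1b and Abcb1a in each of the 16 libraries, with a bar at the group mean. Open points are male control replicate 3, which is in its mean, and female Kl/Kl replicate 3, which is not. Male Kl/Kl points lie above all male controls for Abcc4, Abcc3 and Abcb1b, and female Kl/Kl points lie below all female controls for Abcb1b.

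Abcb1a and Abcb1b encode the mouse P-glycoproteins, pumps of broad drug specificity that were named here after their values were seen. Abcb1b (mm39 chromosome 5, 8848147 to 8916316) had 1.37, 2.17, 1.20, 1.72 and 1.81 TPM in male Kl/Kl kidneys, against 0.945, 0.730 and 0.244 TPM in male controls. It had 1.94, 2.51 and 2.67 TPM in female Kl/Kl replicates 1, 2 and 4, and 0.325 TPM in replicate 3, against 3.52, 3.30, 3.30 and 3.06 TPM in female controls. All male Kl/Kl libraries were thus above their controls, as for 19% of all genes tested in males. All female Kl/Kl libraries, with replicate 3, were below theirs, as for 3.04% of all genes tested in females. Neither change passed the test: the log2 change was 1.37 in males (95% interval 0.58 to 2.15, limma adjusted p = 0.054) and -0.47 in females (-0.73 to -0.20, limma adjusted p = 0.168).

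The difference of the Abcb1b changes between the sexes was 1.83 (95% interval 0.95 to 2.72, limma adjusted p = 0.0599). It passed without male control replicate 3, at 1.35 (limma adjusted p = 0.0172), and without male control replicate 1, at 2.15 (limma adjusted p = 0.0214). The male change also passed without control replicate 1, at 1.69 (limma adjusted p = 0.0473). The call in males was made under 8 of 22 alternative settings and that of the difference under 8 of 29. Abcb1a (mm39 chromosome 5, 8710077 to 8798576) had 0.0894 to 0.204 TPM in male Kl/Kl kidneys, against 0.0281 to 0.0952 TPM in male controls, and these ranges overlapped. Its male control mean was under the filter, so it passed only through Kl/Kl libraries. Its log2 change was 0.50 in males (limma adjusted p = 0.227) and -0.14 in females (limma adjusted p = 0.654). The authors' counting could have split reads between these similar copies, so each value is uncertain by an unknown share.

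Abcc2 and Abcg2 have the highest levels of the apical group per exon length. Abcc2, or MRP2, which exports glucuronide and glutathione conjugates, had 5.63, 5.73, 6.89, 6.84 and 7.51 TPM in male Kl/Kl kidneys, against 6.13, 9.27 and 2.33 TPM in male controls. Its groups overlapped, with a log2 change of 0.34 in males (95% interval -0.50 to 1.17, limma adjusted p = 0.576) and 0.19 in females (-0.07 to 0.44, limma adjusted p = 0.454). Abcg2, an exporter of urate and many drugs, had 1.36, 2.09, 2.26, 2.02 and 2.24 TPM in male Kl/Kl kidneys, against 3.21, 2.95 and 1.28 TPM in male controls. Its log2 change was -0.22 in males (95% interval -0.91 to 0.47, limma adjusted p = 0.657) and -0.07 in females (-0.41 to 0.27, limma adjusted p = 0.842). Control replicate 3 was the lowest male library for both. Without it the male changes were -0.21 for Abcc2 (limma adjusted p = 0.489) and -0.62 for Abcg2 (limma adjusted p = 0.0999), so the sign for Abcc2 rests on that library.

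Of the 6 other multidrug resistance proteins, 5 were tested in males, and 1 rose and 0 fell, beside the same shares of all genes (3.2% and 2.03%). Abcc3 (ENSMUSG00000020865, mm39 chromosome 11, 94234121 to 94283824, minus strand) encodes MRP3, a pump of the basolateral membrane that returns glucuronides and bile acids to the blood. It had 0.726, 0.605, 0.462, 1.04 and 0.431 TPM in male Kl/Kl replicates 1 to 5, against 0.0994, 0.0721 and 0.0567 TPM in male control replicates 1 to 3. The lowest male Kl/Kl library was several times the highest control. The mean was 0.652 ± 0.245 TPM in Kl/Kl males (SD, n = 5) and 0.0761 ± 0.0216 TPM in controls (SD, n = 3), a ratio of 8.57, and the log2 change was 2.05 (95% interval 1.45 to 2.64, limma adjusted p = 0.00282). The male control level rested on an estimated 98.9 to 129 reads per library and its mean was under the filter, so Abcc3 passed that filter only through the Kl/Kl libraries. Without a filter the limma adjusted p was 0.0174. Without control replicate 3 the ratio was 7.60, the log2 change 1.96 and the limma adjusted p 0.0126. Against the median gene, Abcc3 stood 1.78 higher.

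In females the mean of Abcc3 was lower in Kl/Kl kidneys. Abcc3 had 0.519, 0.586 and 0.803 TPM in Kl/Kl replicates 1, 2 and 4, and 0.0711 TPM in replicate 3, against 1.90, 0.980, 2.03 and 0.787 TPM in controls. Female controls differed widely among themselves, and control replicate 4 lay below Kl/Kl replicate 4. The mean was 0.636 ± 0.149 TPM in Kl/Kl females (SD, n = 3) and 1.43 ± 0.634 TPM in controls (SD, n = 4), and the log2 change of -0.97 did not pass the test (95% interval -1.76 to -0.18, limma adjusted p = 0.269). The Kl/Kl changes differed between the sexes by 3.01 on the log2 scale, males minus females (95% interval 2.08 to 3.95, limma adjusted p = 0.00261). That difference was 2.93 without male control replicate 3 (limma adjusted p = 0.00713) and 3.54 with female Kl/Kl replicate 3 (limma adjusted p = 0.0286). It passed under 26 of 27 alternatives.

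Abcc10 and Abcc5, named for their mean span-scaled TPM, which does not rank their levels against other genes, encode pumps for nucleotide analogues and cyclic nucleotides. Their log2 changes in males were 0.14 (limma adjusted p = 0.644) and 0.23 (limma adjusted p = 0.417). Abcc1, a glutathione conjugate exporter named after its values were seen, had 0.380 to 0.481 TPM in male Kl/Kl kidneys, against 0.131 to 0.314 TPM in male controls. Its Kl/Kl libraries lay above every control, as for 19% of all genes tested in males, with a log2 change of 0.70 (limma adjusted p = 0.0924). Abcc6, whose loss causes ectopic mineralisation in mouse and human, also passed the male filter only through Kl/Kl libraries. It had 0.112 to 0.215 TPM in male Kl/Kl kidneys, against 0.0733 to 0.127 TPM in male controls, and a log2 change of 0.38 (limma adjusted p = 0.289). Of the sulfonylurea receptors, the regulatory subunits of ATP-sensitive potassium channels, Abcc9 alone was tested. Its log2 change was -0.15 in males (limma adjusted p = 0.709).

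**Figure D2:**
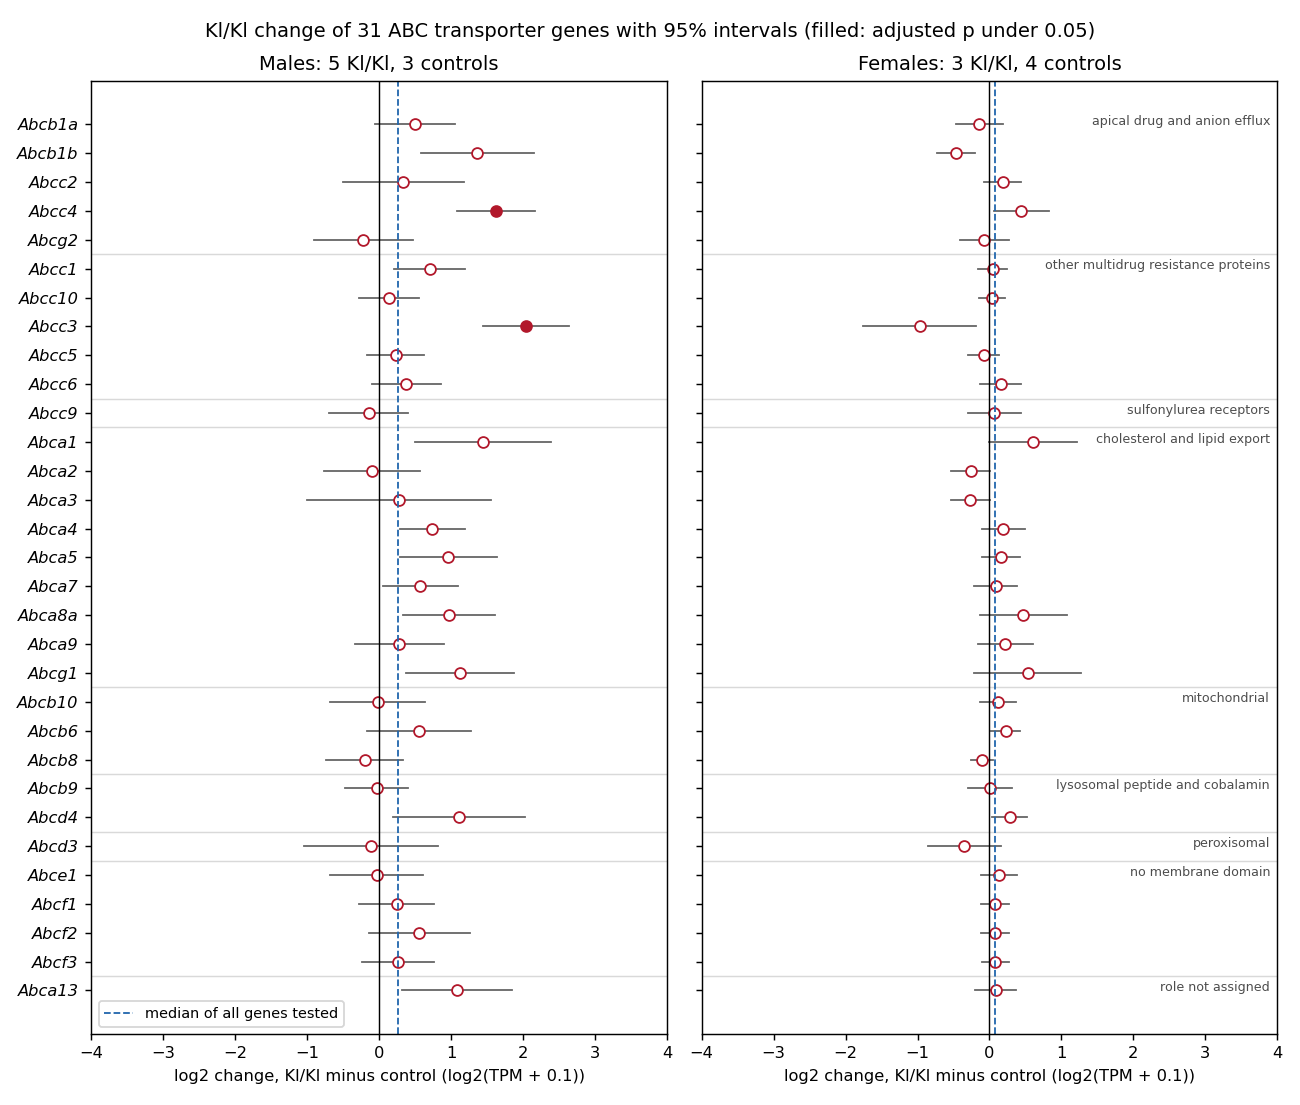
Log2 change of 31 of the 33 tested ABC genes, Kl/Kl minus control on log2(TPM + 0.1), with 95% intervals, in males (5 Kl/Kl, 3 controls) and females (3 Kl/Kl, 4 controls), grouped by role. Filled points passed the test, which were Abcc4 at 1.62 and Abcc3 at 2.05 in males. The dashed line is the median of all genes tested.

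Of the 16 cholesterol and lipid exporters, 9 were tested in males and 0 were called. Their median log2 change was 0.74, against 0.27 over all genes tested, and it was 0.52, against 0.06 over all genes, without control replicate 3. Abca3, which loads phospholipid into lamellar bodies in the lung, and Abca2, a lysosome-associated sterol transporter, have the highest levels of this group per exon length. Abca3 had 12.4, 12.4, 10.8, 13.2 and 16.6 TPM in male Kl/Kl kidneys, against 21.5, 19.7 and 2.81 TPM in male controls. Controls 1 and 2 exceeded every Kl/Kl library and control 3 fell below all of them. The log2 change was 0.28 with all controls (limma adjusted p = 0.774) and -0.67 without control replicate 3 (limma adjusted p = 0.0561). Abca2 had 4.05 to 6.39 TPM in male Kl/Kl kidneys, against 3.01 to 7.11 TPM in male controls, with log2 changes of -0.10 and, without control replicate 3, of -0.48 (limma adjusted p = 0.852 and 0.153).

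Abca1 and Abcg1 export cholesterol to apolipoprotein and to HDL, and are named after their values were seen. Abca1 had 0.943, 0.901, 0.302, 0.740 and 1.39 TPM in male Kl/Kl kidneys, against 0.385, 0.256 and 0.0965 TPM in male controls. Kl/Kl replicate 3 lay within the control range. The log2 change was 1.44 in males (95% interval 0.50 to 2.38, limma adjusted p = 0.0753) and 0.60 in females (-0.01 to 1.21, limma adjusted p = 0.345). Without male Kl/Kl replicate 3 it passed in males, at 1.72 (limma adjusted p = 0.0339). Abcg1 had 0.824, 0.257, 0.201, 0.402 and 0.331 TPM in male Kl/Kl kidneys, against 0.126, 0.121 and 0.0948 TPM in male controls, all Kl/Kl libraries above all controls as for 19% of all genes tested in males. Its log2 change was 1.12 (95% interval 0.37 to 1.87, limma adjusted p = 0.0788). Macrophages carry both transporters. Of 8 macrophage markers 6 were tested and 3 rose in Kl/Kl males (Cd14, Lyz2 and Cd68) and 0 fell. Over all genes tested 3.2% were higher and 2.03% lower. Without control replicate 3, 2 of these markers rose and Cd68 did not pass (limma adjusted p = 0.0732). The summed level of the 8 markers was 16.6 to 27.5 TPM in male Kl/Kl kidneys, against 7.30 to 13.0 TPM in male controls. Among single genes, 19% had every male Kl/Kl library above every control. The part of macrophages in the values of Abca1 and Abcg1 was not tested. In bulk kidney, more cells of a type and more RNA per cell cannot be told apart.

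The remaining groups held no call in either sex. Of the 4 mitochondrial members all were tested in males. Abcb6 and Abcb8, a porphyrin transporter and a subunit linked to mitochondrial iron export, had log2 changes of 0.55 (limma adjusted p = 0.297) and -0.20 (limma adjusted p = 0.598), and Abcb6 overlaps a non-coding gene on the same strand. Abcb6 was the 1 member with every female Kl/Kl library above every female control, at 7.63 to 7.82 TPM in female Kl/Kl kidneys, against 5.96 to 7.29 TPM in female controls. Over all genes 10.1% were above in this way and 3.42% below, where Abcb1b was the 1 member. With Kl/Kl replicate 3 the shares were 3.5% and 3.04%, with 0 members above and Abcb1b below. The female log2 change of Abcb6 was 0.22 (limma adjusted p = 0.295). Abcd4, which exports cobalamin from lysosomes, had 11.3, 3.35, 2.78, 4.70 and 4.77 TPM in male Kl/Kl kidneys, against 1.82, 3.01 and 1.78 TPM in male controls. Kl/Kl replicate 1 was far above the other libraries, and the log2 change was 1.11 (95% interval 0.19 to 2.03, limma adjusted p = 0.133). The lysosomal peptide transporter Abcb9 had a log2 change of -0.04 in males (limma adjusted p = 0.922).

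Abcd3, a peroxisomal fatty acid transporter, had a log2 change of -0.12 in males (95% interval -1.05 to 0.81). Abcf1, Abcf3, Abcf2 and Abce1 have ATPase domains without a membrane domain and act in translation and ribosome recycling. Their male log2 changes lay between -0.04 and 0.56. Abca13, the 1 tested member without an assigned role, had 0.370, 0.682, 0.502, 0.665 and 0.734 TPM in male Kl/Kl kidneys, against 0.373, 0.306 and 0.0705 TPM in male controls. Kl/Kl replicate 1 lay just under the highest control. The log2 change of Abca13 was 1.08 (limma adjusted p = 0.093).

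The 14 members that were not tested in males had at most 0.103 TPM in any of the 15 libraries other than female Kl/Kl replicate 3, and at most an estimated 161 reads. They were Abca6, Abca8b, Abca12, Abca14, Abca17, Abcb4, Abcb11, Abcc8, Abcc12, Abcd2, Abcg3, Abcg4, Abcg5 and Abcg8. They include the bile salt pump Abcb11, the phosphatidylcholine exporter Abcb4 and the sterol pair Abcg5 and Abcg8, known for their work in the liver.

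Levels of different members were compared per kilobase of annotated exon, as estimated reads per M reads, which puts exon length in place of genomic span. The counting method is unstated, so if reads in introns were counted, members with long introns are overstated. In female controls Abca3 was the highest, with a mean of 114 and a range of 106 to 129, and its libraries stood above those of Abcd3, the next, at 50.0 (36.9 to 70.8). Abcd3, Abcc2 at 33.9 and Abcg2 at 32.2 did not differ beyond their spread. Abcb1b followed at 26.2 (24.1 to 27.3), below every Abcg2 library. The first 4 places were held by the same genes in male controls, but Abcb1b was 16th there at 5.28 (2.96 to 7.23), Abcc4 was 17th at 4.76 (2.84 to 5.93) and Abcc3 33rd at 0.685 (0.571 to 0.777). In female controls Abcc4 was 10th at 13.9 and Abcc3 13th at 11.6. The 2 tables were scaled separately, so these ranks within a group are firmer than levels set across the sexes.

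**Figure D3:**
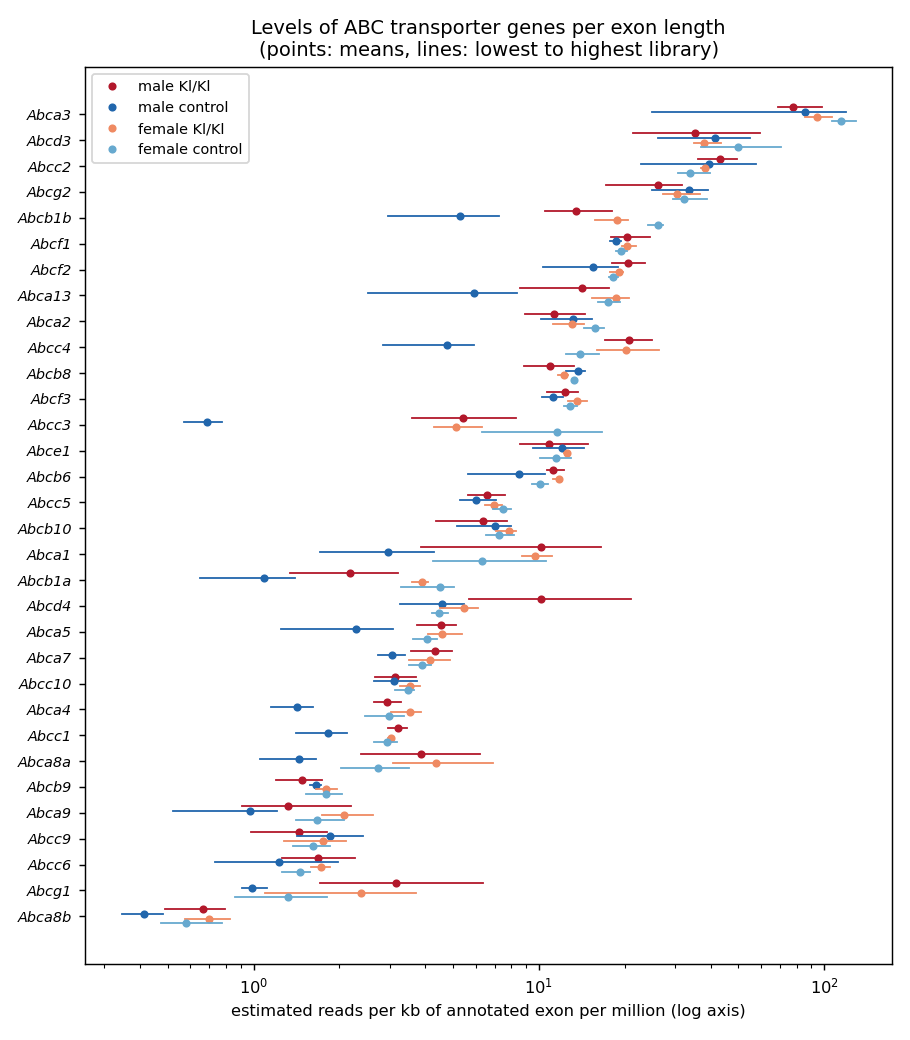
Estimated reads per kilobase of annotated exon per M reads (log axis) of 32 ABC genes with a female control mean of at least 0.3, ordered by that mean. Points are group means and lines run from the lowest to the highest library, without female Kl/Kl replicate 3. Male control means stand to the left of the other group means for Abcc3, Abcc4, Abcb1b and Abcb1a.

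Set across the tables without a test, the male Kl/Kl mean of Abcc4 was 0.617 TPM and that of Abcc3 0.652 TPM, against female control means of 0.426 and 1.43 TPM. The male Kl/Kl mean lay nearer to the female control mean than the male control mean did for 22 of the 33 tested ABC genes (66.67%), against 62.1% of all genes tested. Without male control replicate 3 the counts were 19 of 33 (57.58%), against 50.16%. Those shares are close to the background.

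Most of the family was low in male control replicate 3. Its TPM relative to the mean of the other controls had a median of 0.415 over the 33 tested members (range 0.137 to 1.48), and 32 of 33 (97%) were below 1. Over all genes the median was 0.587 and 85.5% were below 1. With all controls, every male Kl/Kl library lay above every control for 9 of 33 members, against 19% of all genes, and below for 0, against 3.99%. Without that control the counts were 10 above, against 20.8%, and 7 below, against 17.7%. Among the 7 were Abca2, Abca3, Abcb8, Abcb10, Abcc9 and Abcg2. Both calls, Abcc3 and Abcc4, held without it, when 1236 of 17483 genes (7.07%) were called.

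How many members were called depended on the settings, and so did the share of all genes. In males 2 members were called with a pseudocount of 1 TPM (4.11% of all genes), with one of 0.01 TPM (4.92%), without a filter (2.12%), with robust eBayes (5.18%) and with age as a covariate (4.48%). Of 14 members tested with the filter at 1 TPM, which leaves out Abcc3 and Abcc4, 0 were called (5.94% of all genes), and with the pseudocount at 1 TPM as well 1 was called, Abcb1b (5.92%). Of 33 members 6 were called with median-of-ratios scaling (10.3%), 7 when rescaled to nuclear protein-coding genes (12.4%), 7 with the library name prefix as a covariate (11.8%), 10 with voom on estimated reads (16%), 12 with a 4-group model (22.7%), 16 with array weights (27.1%) and 1 with a replicate block (1.25%). Most of these calls were higher in Kl/Kl males, but 1 of the 6 with median-of-ratios scaling (Abcb8) and 5 of the 16 with array weights (Abca2, Abca3, Abcb8, Abcd3 and Abcg2) were lower. Abcc3 rose under each of these that tested it, and Abcc4 under each but the replicate block.

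In females 0 members were called under any of these settings. The shares of all genes were 0.0171% with a pseudocount of 1 TPM and with the prefix, 0.033% without a filter, 0.0229% with the filter at 1 TPM, 0.103% with both at 1 TPM, 0.183% with voom and 0.0914% with the 4-group model. They were 0% with the other settings, including the fit with Kl/Kl replicate 3. For the difference between the sexes Abcc3 alone was called with a pseudocount of 0.01 TPM (0.673% of all genes), without a filter (0.737%), with robust eBayes (0.873%), with age (0.844%), with the prefix (0.975%) and with female Kl/Kl replicate 3 (0.317%). The count was 2 with a pseudocount of 1 TPM (0.878%) and without male control replicate 3 (2.39%), 3 with median-of-ratios scaling (2.39%) and when rescaled (2%), 5 with voom (2.34%) and 6 with array weights (9.17%). It was 0 of 15 tested with the filter at 1 TPM (0.804%), 1 of 15 with both at 1 TPM, Abcb1b (0.874%), and 0 with the replicate block (0.308%).

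**Figure D4:**
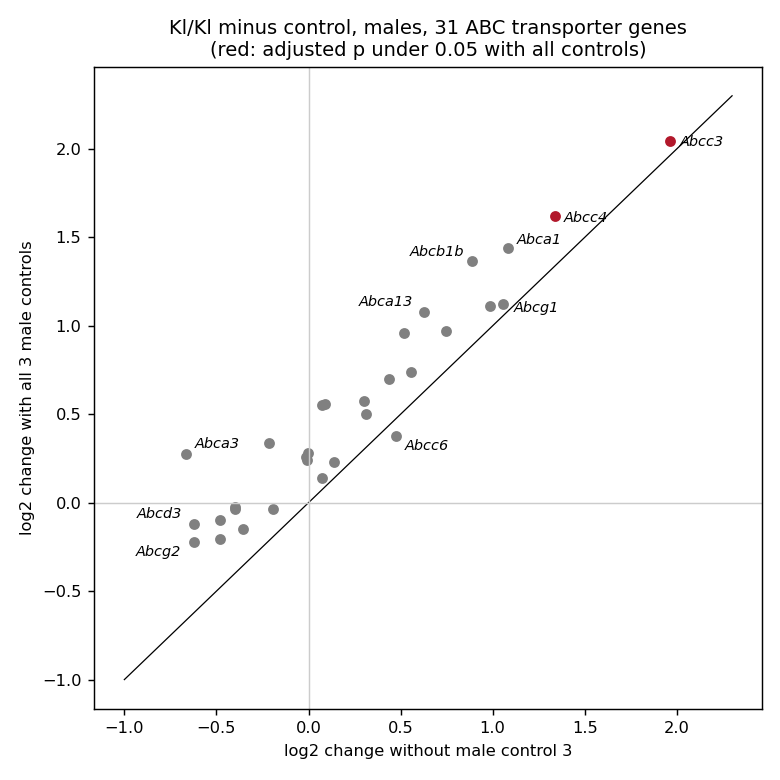
Log2 change of 31 of the 33 tested ABC genes in males, Kl/Kl minus control, with all 3 controls (vertical axis) against that without control replicate 3 (horizontal axis), and the line of equal values. Nearly all points lie above the line, Abca3 crosses zero (0.28 against -0.67), and Abcc3 and Abcc4 (red) stay the highest.

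Genes that work with these transporters were read from lists chosen by function, with earlier results of these data known. Among the 5 carriers that take up or extrude substrates in the proximal tubule, 1 rose and 2 fell in Kl/Kl males, and 0 were called in females. Over all genes tested in males 3.2% were higher and 2.03% lower. Slco4c1, the basolateral organic anion carrier of the kidney, had 0.931 ± 0.074 TPM in male Kl/Kl kidneys (SD, n = 5), against 0.0924 ± 0.0375 TPM in male controls (SD, n = 3). Its log2 change was 2.44 (limma adjusted p = 0.000124). The control mean was under the filter, so Slco4c1 was tested in males only through the Kl/Kl libraries, and without a filter the limma adjusted p was 0.00113. The change in males exceeded that in females by 1.68 (limma adjusted p = 0.015, and 0.247 with female Kl/Kl replicate 3). Slc22a2, the organic cation carrier OCT2, fell to 1.16 ± 0.604 TPM in male Kl/Kl kidneys, against 7.09 ± 2.23 TPM in male controls, a log2 change of -2.61 (limma adjusted p = 0.0099). Slc22a6, the organic anion carrier OAT1, fell to 30.6 ± 10.7 TPM in male Kl/Kl kidneys, against 103 ± 40.0 TPM in male controls, a log2 change of -1.74 (limma adjusted p = 0.0301). All 3 calls held without control replicate 3, but without a filter Slc22a6 did not pass (limma adjusted p = 0.0737). Slc22a8 and Slc47a1 had log2 changes of -0.46 and -0.63 and were not called.

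The calls on Abcc4, Abcc3 and these carriers can be set beside the markers of the cells that hold them. The proximal tubule markers summed to 368 to 539 TPM in male Kl/Kl kidneys, against 283 to 607 TPM in male controls, and 0 of 8 were called. Without control replicate 3, 1 of them rose (Slc5a12) and 0 fell. Their median log2 change was then -0.53, against 0.06 over all genes tested. The male controls without replicate 3 summed to 516 to 607 TPM. Markers of the endothelium summed to 17.1 to 33.1 TPM in male Kl/Kl kidneys, against 10.7 to 17.6 TPM in male controls. Markers of other tubule segments summed to 385 to 469 TPM in male Kl/Kl kidneys, against 120 to 341 TPM in male controls. Aqp2, of the collecting duct, rose among these 4 markers (log2 change 1.47, limma adjusted p = 0.0191) and 0 fell. Among all genes tested in males 3.2% were called higher, and 19% had every Kl/Kl library above every control. The part of cell makeup in the changes of Abcc3 and Abcc4 was not tested.

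Among the regulators of ABC genes, 1 of 14 tested rose in males and 0 fell, where 3.2% of all genes were higher and 2.03% lower. Nr1i2, the xenobiotic receptor PXR, had 0.281 ± 0.0763 TPM in male Kl/Kl kidneys, against 0.0909 ± 0.0238 TPM in male controls (limma adjusted p = 0.0358). Its control mean was under the filter, so it was tested only through the Kl/Kl libraries, and without a filter it did not pass (limma adjusted p = 0.0583). Without control replicate 3 its limma adjusted p was 0.056, and Nr1h3, the oxysterol receptor LXR alpha, was called instead, at a log2 change of -0.77 (limma adjusted p = 0.035). Nfe2l2, which encodes NRF2, had a log2 change of 0.98 (limma adjusted p = 0.0906). Of the 4 lipid acceptors and carriers 2 rose in males and 0 fell, beside the same shares of all genes (3.2% and 2.03%). Apoe, a main acceptor of exported cholesterol, reached 862 ± 193 TPM in male Kl/Kl kidneys, against 63.0 ± 22.3 TPM in male controls, a log2 change of 3.81 (limma adjusted p = 8.77e-05), and its change exceeded that in females by 2.83 (limma adjusted p = 0.00112, and 0.155 with female Kl/Kl replicate 3). Apoa1 had 1.72 to 14.1 TPM in male Kl/Kl kidneys, against 0.429 to 0.883 TPM in male controls, with a log2 change of 2.78 (limma adjusted p = 0.0429), and was not called without control replicate 3 (limma adjusted p = 0.0969) or without a filter (limma adjusted p = 0.1001). Of 8 partner proteins 0 were called, but without that control Slc9a3r1, the scaffold NHERF1, was called at a log2 change of -0.63 (limma adjusted p = 0.0487). Of the ABC genes with other names, Tap1 and Tap2, the antigen peptide transporters, had log2 changes of 0.91 and 0.60 and 0 of 2 were called.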

How the data were processed

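The authors deposited TPM values in 2 tables, one for each sex, and the submitters' processing notes name mm39 and Partek. The aligner and the counting method are unstated, as is any use of strand (not given in the sources used here). The deposited values are TPM scaled by genomic span, as their lowest values show, with column totals of 285327 in males and 265288 in females. Reads were estimated from TPM and span (21.5 to 31.7 M per library), are not counts, and carry no counting interval. The members and gene lists were chosen with earlier results of these data known.

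Groups came from the labels. limma 3.58.1 in R 4.3.3 (lmFit, eBayes with a trend) was run on log2(TPM + 0.1) where the mean reached 0.1 TPM, and checked on simulated data. Every adjusted p is from limma with Benjamini-Hochberg adjustment over all genes tested. Female Kl/Kl replicate 3 was left out of the female and sex-difference fits. Genes past the threshold are named with full values, others up to 2 per role by mean, and further ones where said. Exon lengths came from GENCODE vM21, and plots from matplotlib 3.10.9. The values of 2 members are not reported individually here. Alternatives changed the pseudocount, filter, scaling, weights, covariates, model and libraries.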

Additional observations from a re-analysis of the deposited data

Results flagged for a closer look

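The Kl/Kl change of Abcc3 differed between the sexes by 3.01 on the log2 scale, males minus females, with a limma adjusted p of 0.00261 in the test of the difference itself. Sex cannot be told apart here from control genotype (+/Kl in males, +/+ in females) or from the separately scaled tables. All 5 male Kl/Kl libraries lay above every male control, as for 19% of all genes tested in males, and 3 of the 4 female controls lay above every female Kl/Kl library.

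Single libraries lay far from the rest of their group in 4 of 66 groups of 4 or 5 values examined, where chance gives about 1 in 20. Abcd4 stood at 11.3 TPM in male Kl/Kl replicate 1. Abcd3 stood at 7.57 TPM in male Kl/Kl replicate 4. Abcg2 stood at 1.36 TPM in male Kl/Kl replicate 1 and, in female controls, at 3.17 TPM in replicate 1.

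Female Kl/Kl replicate 3, left out of the fits, held ABC genes above every other female library, although 28 of the 33 tested members were below all of them there. Abca8a had 2.13 TPM, against at most 0.658 TPM in the other female libraries. Abca8b had 0.517 TPM, against at most 0.103 TPM. Abcc9 had 0.617 TPM, against at most 0.171 TPM. Abcd2 had 0.807 TPM, against at most 0.0437 TPM. The same library had the heart, airway and adipocyte marker sums of 1904, 1058 and 1182 TPM.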

How the results depend on the processing

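Of 2303 values of single ABC genes under alternatives, 2235 kept direction and side of the threshold, 65 newly passed, 2 no longer passed and 1 reversed, Abca3 in males at -0.59 with array weights. In males the called genes and ABC genes numbered 501 and 0 with the filter at 1 TPM, 500 and 1 with pseudocount and filter at 1 TPM, 1784 and 6 with median-of-ratios scaling, 2154 and 7 when rescaled to nuclear protein-coding genes, 4708 and 16 with array weights, 2782 and 10 with voom, 2045 and 7 with the library name prefix, and 3952 and 12 with the 4-group model. Median-of-ratios scaling split the male calls into 666 higher and 1118 lower, and leaving out male control replicate 3 gave 447 higher and 789 lower. Leaving out 1 male library gave 301 genes (without control replicate 2) to 1236 genes (without control replicate 3) and 2 to 3 ABC genes, or 1.73% to 7.07% of the genes tested. The other counts that fell by over 1.5 times were 426 without control replicate 1, and 472, 512, 540 and 432 without Kl/Kl replicates 1, 2, 3 and 4. In females the called genes numbered 3 with a pseudocount of 1 TPM, 10 without a filter, 2 with the filter at 1 TPM, 9 with both at 1 TPM, 32 with voom, 3 with the prefix, 16 with the 4-group model and 0 to 13 with 1 library left out, and 0 ABC genes were called. For the difference between the sexes the called genes and ABC genes numbered 69 and 0 with the filter at 1 TPM, 75 genes with both at 1 TPM, 419 and 3 with median-of-ratios scaling, 350 and 3 when rescaled, 1607 and 6 with array weights, 410 and 5 with voom, and 56 genes with female Kl/Kl replicate 3. A pseudocount of 1 TPM gave 2 ABC genes. Leaving out 1 library gave 100 to 420 genes and 1 to 2 ABC genes. The cause of these shifts was not tested.

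Deviations from the group means had correlations of -0.14 to 0.18 between same-numbered Kl/Kl and control libraries. Differently numbered libraries were not set beside them, so pairing by replicate number was neither shown nor excluded. A fit with a replicate block called 217 genes and 1 ABC gene in males, 0 in females, and 54 genes and 0 ABC genes for the difference between the sexes. Under the block Abcc4 in males had a limma adjusted p of 0.0732 and the Abcc3 difference 0.0692. Low levels limit the precision for the 14 untested members.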
